A study of Mus musculus with 27 samples.

Results

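The 10 genes examined encode the transporters, channels and enzymes with which the colon takes up salt and water or secretes fluid: Slc26a3, Slc9a3, Scnn1a, Scnn1b, Scnn1g, Aqp8, Car1, Car4, Cftr and Slc12a2. They were chosen by name, as the rows of the count files whose Ensembl identifiers map to these symbols, and make up 10 of 46078 genes. All 10 passed the filter on low counts that kept 16496 genes, and each is described below. Among mice that received the same dose, 7 of the 10 were called for a change with the level of Hoxb13, a homeobox gene of the distal colon, as were 9.12% of all genes tested, and the call of 1 of the 7, Slc12a2, was lost when 1 mouse, any of 17, was left out. Against vehicle, 1 of the 10, Slc9a3, was called at 10 and 30 μg/kg of TCDD, as were 1.78% and 6.16% of all genes. With a score of clock genes in the fit the log2 changes of Slc9a3 were 0.58 and 0.76, against 0.68 and 0.86 without it, and neither was called. With a term for the sequencing index set they were 0.99 (not called) and 1.16 (called). That term rests on mouse 41 against mice 43 and 44 at 1 μg/kg, the only dose with mice of both index sets.

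Surface colonocytes absorb sodium chloride by pairing the sodium/hydrogen exchanger NHE3 (Slc9a3) with the chloride/bicarbonate exchanger DRA (Slc26a3), and carbonic anhydrases (Car1 in the cytosol, Car4 on the apical membrane) supply the protons and bicarbonate that both exchangers trade. In the distal colon, sodium also enters through the epithelial sodium channel ENaC, built from an alpha (Scnn1a), a beta (Scnn1b) and a gamma (Scnn1g) subunit and controlled by aldosterone. Water follows the salt, and Aqp8 is a water channel of surface colonocytes. Secretion runs the other way in the crypts, where the basolateral cotransporter NKCC1 (Slc12a2) loads chloride into the cell and the channel CFTR lets it out into the lumen.

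Scrapings of the colonic epithelium were taken from 27 male C57BL/6 mice, with 3 mice in each of 9 groups. The mice received sesame oil vehicle or 1 of 8 TCDD doses (0.01 and 0.03, 0.1 and 0.3, 1 and 3, or 10 and 30 μg/kg) by oral gavage every 4 days for 28 days, 7 gavages in all, from 28 to 56 days of age. TCDD is the dioxin 2,3,7,8-tetrachlorodibenzo-p-dioxin, an agonist of the aryl hydrocarbon receptor (AhR), and all groups shared strain, sex, age, vehicle and feed. RNA was sequenced from each mouse, and reads were counted per gene. The gene counts ranged from 9305441 to 14371035 per mouse (median 11651026), and levels are given as CPM, the counts scaled to a common library size with TMM factors. The scrapings are bulk tissue, so that fewer cells of a type and less RNA per cell cannot be told apart.

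The scrapings held colonocyte RNA, with 12 colonocyte markers (Slc26a3, Car1, Car4 and Aqp8 among them) summing to between 10136 and 17148 CPM in every mouse. The 5 AhR target genes examined were all induced at 30 μg/kg, from 74.7 to 88.2 CPM in sum in the vehicle group to between 2538 and 3044 CPM. Hoxb13 itself varied from 5.73 to 162 CPM between mice, with no gap that would split them into separate groups other than 0.93 log2 units between the lowest mouse and the next, and it had no called slope over dose (0.070 ± 0.069 log2 units per dose rank, edgeR quasi-likelihood test, adjusted p = 0.502). A pair of further variables followed the dose. The sequencing index barcodes had been reused, with 16 barcodes for 27 mice, and 2 index sets were inferred from them. Mice were taken in order of their number, and a mouse whose barcode a lower-numbered mouse already had was put in the second set. Mouse numbers rise with the dose, so the sets follow the dose in part through this rule. The first held 16 mice (mouse 41 at 1 μg/kg and every mouse below that dose) and the second held 11 mice (mice 43 and 44 at 1 μg/kg and everything above). The clock score, the mean log2 CPM of 8 genes that peak in the evening minus that of 4 that peak in the morning, lay between -2.32 and -2.08 in the vehicle group and between 2.16 and 2.82 at 3 to 30 μg/kg, although the study's methods place collection early in the light phase. The clock score was above the vehicle range at 0.3 μg/kg already (-0.78 to -0.034) and reached 1.43 to 2.43 at 1 μg/kg, where the index set changed. In comparisons of 3 to 30 μg/kg with vehicle, both variables therefore cannot be told apart from the dose. Within 3 to 30 μg/kg the index set was constant. Only 1 μg/kg had mice of both sets. An index-set term beside terms for the dose groups therefore rests on mouse 41 against mice 43 and 44.

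Promoter sequences of the members are given as a description, and their part in the changes with dose or with Hoxb13 was not tested. RefSeq promoters of GRCm38.p6 (250 bases before to 50 after the start of transcription) were matched for 7 of the 10 members, namely Slc26a3, Slc9a3, Scnn1b, Scnn1g, Aqp8, Car4 and Cftr. The 250 bases upstream of the start are printed, 5′ to 3′, for Slc9a3 (chr13:74121163-74121412, plus strand), Scnn1g (chr7:121734229-121734478, plus strand) and Cftr (chr6:18170437-18170686, plus strand), the 3 members whose slopes over dose were called, and for Aqp8 (chr7:123462044-123462293, plus strand) and Car4 (chr11:84957504-84957753, plus strand), which rose with Hoxb13. Capitals mark GCGTG, the core of the dioxin response element to which the AhR binds, on either strand (CACGC is its reverse complement).
Slc9a3: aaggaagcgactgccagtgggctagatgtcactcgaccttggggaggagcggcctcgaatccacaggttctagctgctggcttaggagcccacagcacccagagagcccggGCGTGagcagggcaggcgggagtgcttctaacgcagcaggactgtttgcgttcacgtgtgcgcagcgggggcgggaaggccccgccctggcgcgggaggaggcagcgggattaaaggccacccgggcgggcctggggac
Scnn1g: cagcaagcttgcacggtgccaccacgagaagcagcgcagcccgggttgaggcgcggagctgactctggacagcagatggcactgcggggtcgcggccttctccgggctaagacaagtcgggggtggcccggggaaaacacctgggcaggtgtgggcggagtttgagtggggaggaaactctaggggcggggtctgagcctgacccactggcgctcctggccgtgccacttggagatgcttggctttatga
Cftr: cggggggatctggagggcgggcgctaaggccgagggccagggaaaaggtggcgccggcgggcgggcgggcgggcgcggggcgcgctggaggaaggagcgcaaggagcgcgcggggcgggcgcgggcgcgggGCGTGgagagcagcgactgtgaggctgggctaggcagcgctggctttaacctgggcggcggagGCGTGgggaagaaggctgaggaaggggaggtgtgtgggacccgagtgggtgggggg
Aqp8: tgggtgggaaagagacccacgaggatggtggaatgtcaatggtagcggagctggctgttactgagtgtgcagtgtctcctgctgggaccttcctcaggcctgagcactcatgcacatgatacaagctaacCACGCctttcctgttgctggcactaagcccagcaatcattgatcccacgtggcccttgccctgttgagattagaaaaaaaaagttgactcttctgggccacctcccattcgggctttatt
Car4: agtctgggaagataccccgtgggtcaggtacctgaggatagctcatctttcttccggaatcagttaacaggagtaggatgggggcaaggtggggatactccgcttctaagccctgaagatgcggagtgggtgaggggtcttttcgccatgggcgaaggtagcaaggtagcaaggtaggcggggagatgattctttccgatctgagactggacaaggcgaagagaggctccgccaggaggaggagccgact
GCGTG was found once in the window of Slc9a3, beginning 139 bases upstream of the start, once in that of Aqp8 (120 bases upstream) and 2 times in that of Cftr (119 and 56 bases upstream). It was absent from these windows of Slc26a3, Scnn1b, Scnn1g and Car4, and 32.4% of 32851 promoters of the same length hold it. AGAACA, a half-site of the glucocorticoid and mineralocorticoid receptors, was found only in Slc26a3 among the 7 members, 41 bases downstream of the start, and is in 19% of all promoters. CCAATAAA, a site of the HOX13 type that is in 1.12% of promoters, was found in 0 of the 7 windows. None of these 3 motifs overlapped another in the windows printed. These are matches of letters within short windows, and no binding was measured.

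Levels differed widely between the members. Per kilobase of exon (union of the exons in GENCODE M21), the cytosolic carbonic anhydrase Car1 was the highest at 3607 CPM per kb, the mean of 27 mice, followed by Car4 (294), Aqp8 (210) and Slc26a3 (139). Slc9a3 stood at 98.4, Slc12a2 at 51.6, Scnn1a at 40.7 and Cftr at 31.7 CPM per kb. The ENaC subunits Scnn1b and Scnn1g were the lowest, at 4.58 and 1.23 CPM per kb, so that the alpha subunit RNA exceeded both of its partners per length. Scnn1g rested on 6 to 135 reads per mouse and Scnn1b on 59 to 218, whereas Car1 had 28106 to 81998 reads. The sodium absorption genes lie at chr13:74121457-74169442 (Slc9a3, ENSMUSG00000036123), chr6:125320659-125344943 (Scnn1a, ENSMUSG00000030340), chr7:121865038-121918514 (Scnn1b, ENSMUSG00000030873) and chr7:121734479-121768475 (Scnn1g, ENSMUSG00000000216) of GRCm38, so that Scnn1b and Scnn1g are neighbours. Slc26a3 (ENSMUSG00000001225) lies at chr12:31390871-31473917, Aqp8 (ENSMUSG00000030762) at chr7:123462291-123468004, Car1 (ENSMUSG00000027556) at chr3:14766216-14808368 and Car4 (ENSMUSG00000000805) at chr11:84957786-84966044. All 10 are protein-coding genes, and their exons overlap no other gene's except for 129 exonic bases that Cftr (chr6:18170687-18322768, plus strand, GRCm38) shares with the antisense gene Gm15592, which had 1 to 10 reads per mouse against 1978 to 3990 for Cftr.

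Which members changed with the dose was asked first. At the 4 lowest doses, 0.01 to 0.3 μg/kg, 0 of the 10 members were called against vehicle by edgeR's quasi-likelihood test (Benjamini-Hochberg adjusted p under 0.05 over all genes and a fold change of at least 1.5), as were 0% of all genes tested at each of these doses. None of the 10 had an unadjusted p under 0.05 there, and DESeq2 and limma voom also called none. At 1 μg/kg, 0 members were called against 0.2% of all genes, and only Scnn1b had an unadjusted p under 0.05 by edgeR. At 3 μg/kg, 0 members were called against 0.697% of all genes, with an unadjusted p under 0.05 for Slc9a3 alone. DESeq2 and limma voom called none at these 2 doses either. At 10 μg/kg, 1 of the 10 was called (1.78% of all genes in either direction, 0.812% higher), and at 30 μg/kg again 1 (6.16% in either direction, 2.95% higher and 3.21% lower). The member called was Slc9a3 at both doses. Across the 10 members the median log2 change at 30 μg/kg was 0.10, beside -0.0022 over all genes tested.

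**Figure D1:**
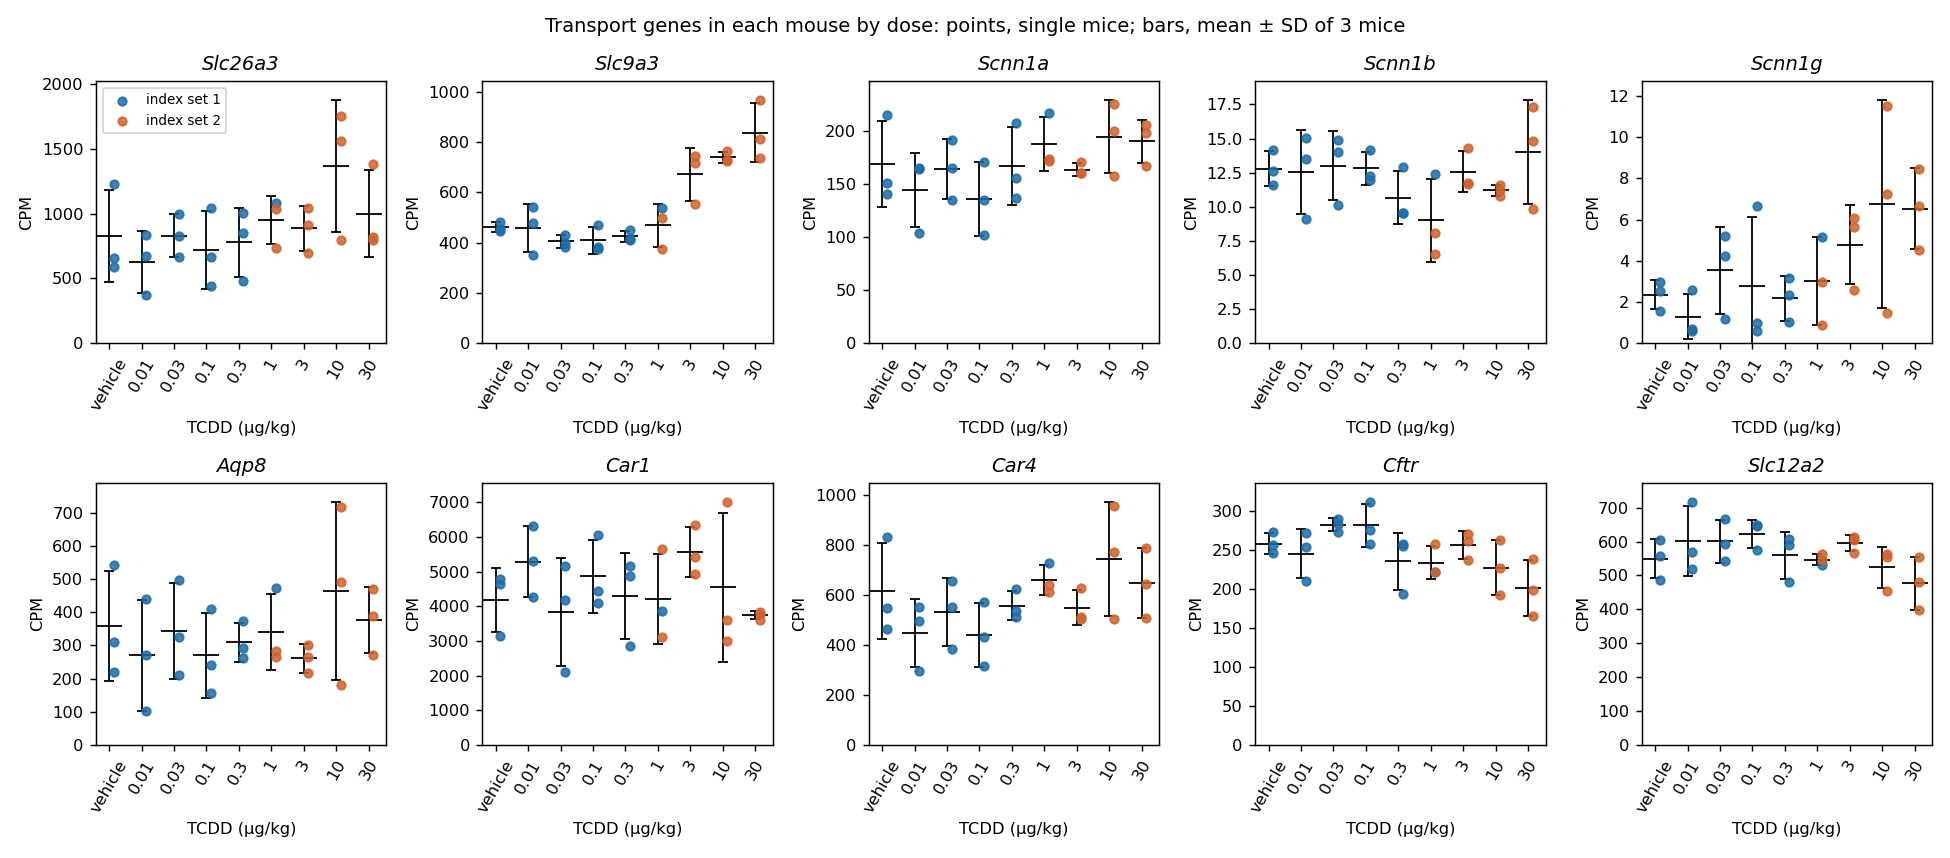
CPM of the 10 transport genes (y axes, from 0) in each mouse at each dose of TCDD (x axes, μg/kg, equally spaced). Points are single mice, coloured by index set, and bars are the mean ± SD of 3 mice. Slc9a3 lay above the vehicle range in all mice at 3, 10 and 30 μg/kg, while Slc26a3, Aqp8 and Car4 spread widely within single doses.

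Slc9a3, the gene of the apical exchanger NHE3, was the member called at single doses of TCDD. Its levels in the 3 vehicle mice were 445, 455 and 483 CPM. From 0.01 to 1 μg/kg the 15 treated mice lay between 352 and 540 CPM, and each of these groups overlapped the vehicle range except that at 0.03 μg/kg, which lay below it (383 to 431 CPM). The log2 fold change was 0.027 ± 0.14 (SE) at 1 μg/kg (adjusted p = 0.974). Slc9a3 levels were 552, 716 and 746 CPM at 3 μg/kg, 726, 728 and 765 CPM at 10 μg/kg, and 735, 812 and 965 CPM at 30 μg/kg. Every mouse at these 3 doses was above every vehicle mouse. The log2 fold changes were 0.54 ± 0.14 at 3 μg/kg (1.46-fold, adjusted p = 0.0599, not called), 0.68 ± 0.14 at 10 μg/kg (1.60-fold, adjusted p = 0.0101) and 0.86 ± 0.14 at 30 μg/kg (1.82-fold, adjusted p = 5.89e-04, edgeR). Without mouse 49 at 3 μg/kg, Slc9a3 was called at that dose as well (0.67, adjusted p = 0.0407). An exact two-sided permutation test of single genes gave p = 0.1 at each of the 3 doses, the smallest p that 3 mice against 3 allow.

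The dose from which all mice exceeded vehicle in Slc9a3 was one by which the index set and the clock score had also changed, so values bearing on both are given. The 2 mice of the second index set at 1 μg/kg had 374 and 498 CPM of Slc9a3, below all 9 mice at the higher doses. Against these 2 mice, Slc9a3 was 1.93-fold higher at 30 μg/kg (log2 0.95 ± 0.16, edgeR adjusted p = 0.0141, called, as were 1.62% of 16169 genes), and 1.71-fold and 1.54-fold at 10 and 3 μg/kg, neither called (adjusted p = 0.136 and 0.346). Between 30 and 3 μg/kg, which share the index set, Slc9a3 differed by 0.32 ± 0.14 on the log2 scale (adjusted p = 0.407), and 0 of the 10 members were called in that comparison beside 0.461% of all genes. There Slc9a3, Cftr and Slc12a2 had an unadjusted p under 0.05. Adding the clock score to the fit, an alternative chosen after seeing the data, gave Slc9a3 a log2 fold change at 30 μg/kg of 0.76 ± 0.28 that was no longer called (adjusted p = 0.136). When the fit held an index-set term, Slc9a3 stood at 1.16 ± 0.25 at 30 μg/kg (adjusted p = 0.0152, called) and 0.99 ± 0.25 at 10 μg/kg (adjusted p = 0.0678, not called). In that fit the index-set term rests on mouse 41 against mice 43 and 44 at 1 μg/kg, with 538 against 374 and 498 CPM of Slc9a3.

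**Figure D2:**
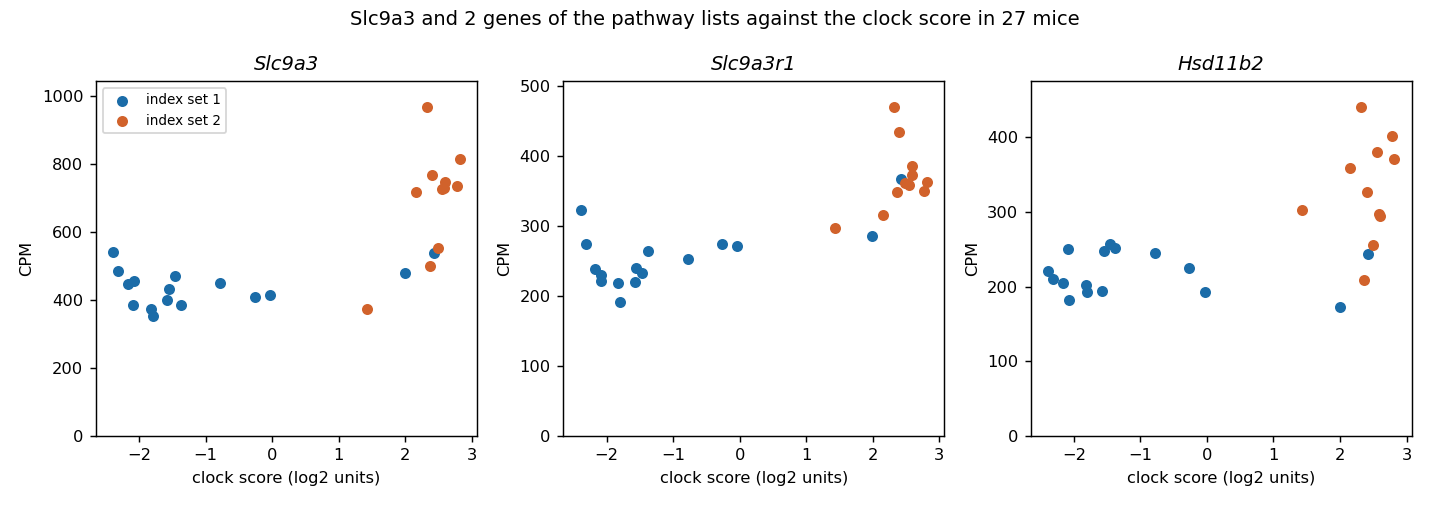
CPM (y axes, from 0) of Slc9a3 and of 2 genes of the pathway lists, Slc9a3r1 and Hsd11b2, against the clock score (x axes, log2 units) in 27 mice, coloured by index set. Mice with a clock score of 1.43 or more include mouse 14 at 0.01 μg/kg and the 3 mice at 1 μg/kg, whose Slc9a3 lay between 374 and 538 CPM, and the 9 mice at 3 to 30 μg/kg with 552 to 965 CPM.

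A few mice had an evening clock score without a high dose. Mouse 14 at 0.01 μg/kg had a clock score of 2.00 and 479 CPM of Slc9a3, within the vehicle range. The 3 mice at 1 μg/kg had clock scores between 1.43 and 2.43, with 538, 374 and 498 CPM of Slc9a3. These 4 mice thus lay below each of the 9 mice at 3 to 30 μg/kg.

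A linear slope over the 9 dose ranks used every mouse and was called for 3 of the 10 members (adjusted p under 0.05), with 2 higher and 1 lower. Over all genes 23.4% were called for this slope, 11.8% higher and 11.6% lower, so that 3 of 10 is close to the background. Slc9a3 rose by 0.12 ± 0.018 log2 units per dose rank (edgeR adjusted p = 3.23e-05) and Scnn1g by 0.23 ± 0.064 (adjusted p = 0.0098). Cftr fell by 0.039 ± 0.013 per rank (adjusted p = 0.0318). Slc26a3 narrowly missed the threshold with 0.085 ± 0.032 (adjusted p = 0.0503). Without vehicle mouse 2, 7 members were called, Slc26a3, Scnn1a, Car4 and Slc12a2 in addition. An index-set term left 0 members and 11 genes in all called for the slope, and the clock score left 0 members and 27 genes.

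Of the 3 ENaC subunits, Scnn1g had a called slope and none was called at a single dose. Scnn1g, the gamma subunit, was at 1.57, 2.53 and 2.95 CPM in the vehicle group and at 4.53, 6.64 and 8.45 CPM at 30 μg/kg. The groups did not overlap, but the log2 fold change of 1.47 ± 0.74 was not called (adjusted p = 0.204), and mice of the same dose differed widely. At 10 μg/kg, for example, Scnn1g ranged from 1.46 CPM in mouse 58 to 11.5 CPM in mouse 57, which had 16.2 and 162 CPM of Hoxb13. With the distal Hox score (mean log2 CPM of 4 distal Hox genes, Hoxb13 included) in the fit, Scnn1g was called at 30 μg/kg (1.68, adjusted p = 0.0164), whereas with the clock score its log2 change at that dose turned negative (-0.88) and was not called. Scnn1a, the alpha subunit, differed by 0.17 ± 0.20 at 30 μg/kg (adjusted p = 0.631) and Scnn1b, the beta subunit, by 0.13 ± 0.22 (adjusted p = 0.761), both overlapping the vehicle range. Scnn1b had its lowest group mean at 1 μg/kg, 9.01 ± 3.06 CPM (SD, n = 3), where 6.55 and 8.04 CPM in the mice of the second index set stood beside 12.4 CPM in the mouse of the first. Against those 2 low mice, Scnn1b was 1.92-fold higher at 30 μg/kg, which was not called (adjusted p = 0.0530).

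Of the secretory genes, neither Cftr nor Slc12a2 was called at any single dose. Cftr was at 246, 255 and 272 CPM in the vehicle group and at 165, 199 and 238 CPM at 30 μg/kg, with no overlap. The log2 fold change of -0.36 ± 0.13 was not called (adjusted p = 0.0751, and short of 1.5-fold). Its slope was lost without mouse 58 at 10 μg/kg or without mouse 66 or 67 at 30 μg/kg (adjusted p = 0.0618, 0.0969 and 0.0829). Slc12a2 was at 487, 557 and 604 CPM in the vehicle group and at 397, 479 and 554 CPM at 30 μg/kg, overlapping it (-0.21 ± 0.13, adjusted p = 0.315). Both are genes of the crypt, and of the 8 crypt and cycling markers listed, which include them, 3 were called lower at 30 μg/kg (Lgr5, Axin2 and Mki67), as were 3.21% of all genes, with the list summing to 1154 to 1322 CPM in the vehicle group and 799 to 995 CPM at 30 μg/kg. The part of that change in Cftr was not tested.

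Slc26a3, Aqp8, Car1 and Car4 had no called change at any dose. Slc26a3 was at 587, 658 and 1233 CPM in the vehicle group and at 794, 822 and 1385 CPM at 30 μg/kg (log2 fold change 0.28 ± 0.36, adjusted p = 0.669). Aqp8 was at 220, 310 and 542 CPM in the vehicle group and at 270, 389 and 470 CPM at 30 μg/kg (0.075 ± 0.47, adjusted p = 0.942). The high mouse of the vehicle group, mouse 2, was the same for both genes, and without it the log2 changes at 30 μg/kg became 0.69 and 0.51, neither called. At 3 μg/kg all 3 mice exceeded the vehicle mice in Car1 (4919 to 6359 against 3129 to 4786 CPM, 0.41 on the log2 scale, adjusted p = 0.543). Car1 stayed within the vehicle range at 30 μg/kg (-0.16 ± 0.31, adjusted p = 0.782), and so did Car4 (0.074 ± 0.26, adjusted p = 0.889). The standard errors of 0.26 to 0.47 log2 units limit what 3 mice a group could show for these 4 genes, and Slc26a3 at 10 μg/kg, 1.66-fold above vehicle, was not called either (0.73 ± 0.36, adjusted p = 0.294).

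**Figure D3:**
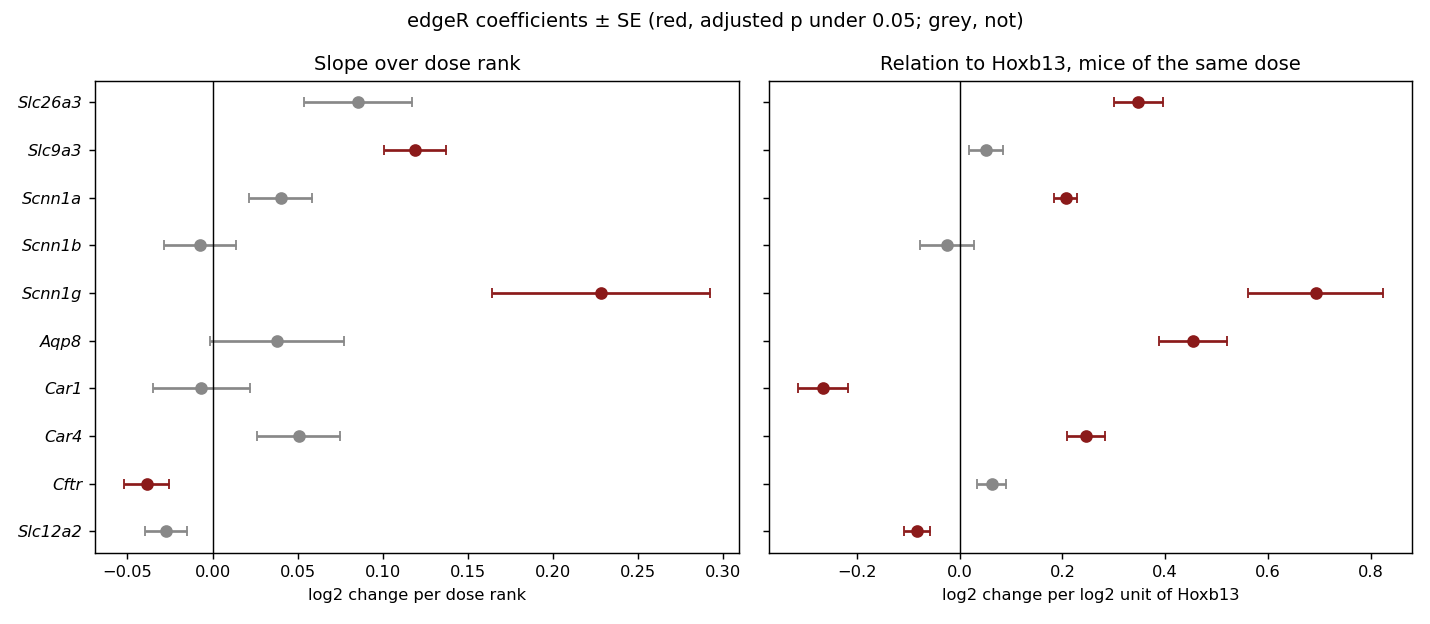
edgeR estimates ± SE for the 10 transport genes, as log2 change per dose rank (left) and log2 change per log2 unit of Hoxb13 among mice of the same dose (right). Red points passed an adjusted p under 0.05 over all genes. Slc9a3, Scnn1g and Cftr were called on the left and 7 genes on the right, with Scnn1g the largest at 0.69.

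The second question was how the members follow Hoxb13, which is known to be highest in the distal colon. Where along the colon each scraping was taken was not tested. The test used a term for log2 CPM of Hoxb13 in a fit that also had a term for each dose group, and so compared mice of the same dose. It called 7 of the 10 members, 5 higher and 2 lower, beside 9.12% of 16495 genes (5.02% higher and 4.1% lower). The median of the 10 coefficients was 0.13, beside -0.0033 over all genes. The absorptive genes Slc26a3, Car4, Aqp8, Scnn1a and Scnn1g rose with Hoxb13, and Car1 and Slc12a2 fell. Markers of other cell types moved with Hoxb13 as well, with 3 of 5 enteroendocrine markers called lower (Chga, Chgb and Neurod1) and 1 higher (Pyy), and 3 of 7 goblet markers called higher (Fcgbp, Clca1 and Zg16) and 1 lower (Muc2). Their part in the changes of the members was not tested.

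Scnn1g had the largest coefficient, 0.69 ± 0.13 log2 units per log2 unit of Hoxb13 (1.62-fold for each doubling, edgeR adjusted p = 9.24e-04), followed by Aqp8 with 0.45 ± 0.066 (adjusted p = 4.89e-05). Slc26a3 rose by 0.35 ± 0.047 (adjusted p = 1.82e-05), Car4 by 0.25 ± 0.036 (adjusted p = 5.26e-05) and Scnn1a by 0.21 ± 0.022 (adjusted p = 7.91e-07). Scnn1a had the smallest of these slopes and the smallest error, and the highest Pearson's r with Hoxb13 over all 27 mice (0.88). Car1 had the larger Spearman's rho in size (-0.85 against 0.83). Without the 2 mice farthest from the median of Hoxb13, r was larger in size for Car1 (-0.82) and Aqp8 (0.81) than for Scnn1a (0.80). Car1 fell by 0.27 ± 0.048 per log2 unit (adjusted p = 6.06e-04). The calls of these 6 genes were kept in each of the 11 alternatives tried and without each of the 27 mice. Slc12a2 fell by 0.082 ± 0.025 (adjusted p = 0.0421), and lost the call when any 1 of 17 of the 27 mice was left out, with adjusted p between 0.0515 and 0.128 in those 17 fits. Slc9a3 (0.051 ± 0.032, adjusted p = 0.418), Cftr (0.063 ± 0.028, adjusted p = 0.205) and Scnn1b (-0.025 ± 0.053, adjusted p = 0.865) were not called.

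**Figure D4:**
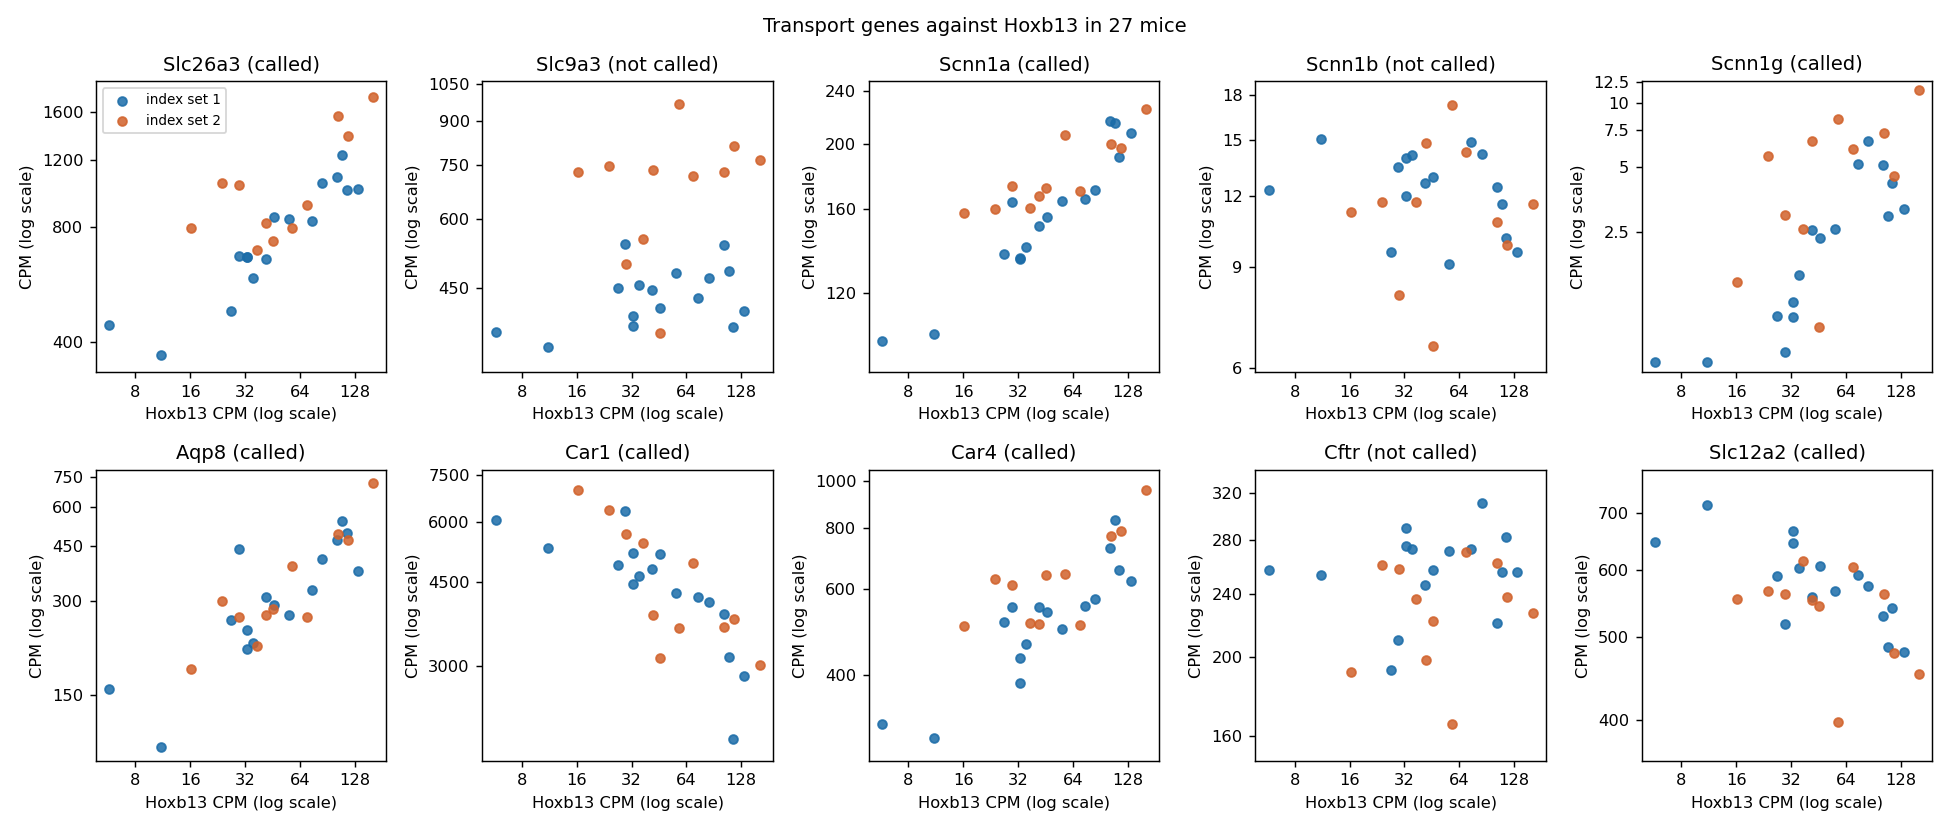
CPM of the 10 transport genes (y axes, log scale) against CPM of Hoxb13 (x axes, log scale) in 27 mice, coloured by index set. The titles say which genes were called for the relation to Hoxb13 within dose groups. Points of Slc26a3, Scnn1a, Scnn1g, Aqp8 and Car4 rise to the right and those of Car1 and Slc12a2 fall in both index sets. The highest points of Slc9a3 are the mice at 3 to 30 μg/kg, all of the second index set.

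Single mice show the size of these differences. In the 5 mice with the least Hoxb13 (5.73 to 26.9 CPM), the water channel gene Aqp8 ran from 103 to 300 CPM, and in the 5 with the most (110 to 162 CPM) from 374 to 718 CPM. Scnn1a ran from 101 to 160 CPM at the low end and from 191 to 226 CPM at the high end. Neither gene overlapped between the ends. Car1 ran the other way, from 4876 to 7006 CPM at the low end of Hoxb13 and from 2117 to 3770 CPM at the high end, and Slc12a2 from 555 to 716 and from 453 to 542 CPM, again without overlap. Slc26a3 overlapped at the ends (371 to 1044 and 997 to 1751 CPM), and so did Car4 and Scnn1g. Cftr, with 192 to 261 and 227 to 282 CPM, overlapped widely. The 10 mice came from different doses, and the ranges are a description without a test.

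The order of mice within a dose followed the same lines. In 8 of 9 dose groups, the mouse with the most Hoxb13 of its group also had the most Slc26a3, and in 8 of 9 the most Scnn1a. For Aqp8, Car4 and Scnn1g this held in 7 of 9 groups. The same mouse had the least Car1 in 7 of 9 groups and the least Slc12a2 in 6 of 9. For Slc9a3 it had the most in 4 groups and the least in 2, and for Scnn1b the most in 4 and the least in 5.

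Over all 27 mice, Pearson's r of log2 CPM with Hoxb13 was 0.88 for Scnn1a (Spearman's rho 0.83, permutation p = 1e-05 for each, the smallest that 100000 permutations can give). It was 0.80 for Scnn1a without the 2 mice farthest from the median of Hoxb13, 0.95 within the 16 mice of the first index set and 0.86 within the 11 of the second. For Car1, r was -0.77 (rho -0.85, permutation p = 1e-05 for each), -0.82 without those 2 mice, and -0.78 and -0.80 within the index sets. For Slc26a3, r was 0.81 (rho 0.74, permutation p = 1e-05 for each), 0.72 without those 2 mice, and 0.92 and 0.71 within the index sets. Such values were computed for each of the 10 members, and the 10 p-values were not adjusted among themselves.

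The carbonic anhydrases Car1 and Car4 therefore ran in opposite directions along Hoxb13, although both serve acid-base transport. The ratio of Car1 to Car4 CPM had a median of 8.69 and ranged from 3.14 in mouse 57 at 10 μg/kg to 19.1 in mouse 25 at 0.1 μg/kg, the mice with the most and the least Hoxb13. Mouse 57 had 958 CPM of Car4 and 3011 CPM of Car1, and mouse 25 had 317 and 6048 CPM. Their Aqp8 levels were 718 and 157 CPM.

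The members that rose with Hoxb13 also varied together. Among Slc26a3, Scnn1a, Scnn1g, Aqp8 and Car4, Pearson's r of log2 CPM over the 27 mice lay between 0.66 and 0.93 in the 10 pairs, with Aqp8 and Car4 at 0.91 overall and 0.96 once the dose means were taken out. These values are a description, since the 27 mice share doses and index sets. Scnn1b had no such partner, with r between -0.32 and 0.24 with the other members, so the beta subunit of ENaC varied apart from the alpha and gamma subunits, which had r = 0.75 with each other.

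Outside the members, the genes most alike were sought among 9124 tested genes with a mean of at least 10 CPM, by Pearson's r of log2 CPM over the 27 mice. Slc26a3 was most like Slc26a2 (r = 0.95), a sulfate transporter of the same family. Scnn1a (r = 0.95) and Aqp8 (r = 0.92) were both most like Slc6a8, the creatine transporter. Car4 was most like Clic5 (r = 0.94), Scnn1g most like the bestrophin Best2 (r = 0.87) and Car1 most like the retinal dehydrogenase Aldh1a1 (r = 0.90). Slc9a3 was most like Slc25a5 (r = 0.93), an ADP/ATP carrier of mitochondria, and Scnn1b had the weakest best match (Akr1b8, r = 0.81). Cftr was most like Arhgef38 (r = 0.89) and Slc12a2 most like Tbc1d4 (r = 0.89).

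The wider machinery of ion and water transport was covered by lists of 71 genes, of which 64 were tested. At 30 μg/kg, 7 of the 64 were called higher and 2 lower, where 2.95% and 3.21% of all genes were, with a median log2 change of 0.11 over the 64 genes beside -0.0022 over all genes. Of the 14 genes that control ENaC, 3 were higher and 0 lower. They were Hsd11b2 (1.02 ± 0.15, adjusted p = 1.29e-04), the enzyme that shields the mineralocorticoid receptor from glucocorticoids, Usp2 (1.79 ± 0.29, adjusted p = 4.85e-04), a deubiquitinase that acts on ENaC and is known as a clock-controlled gene, and Tsc22d3 (0.62 ± 0.19, adjusted p = 0.0353), a glucocorticoid-induced regulator of ENaC. Tsc22d3 was also higher at 30 than at 3 μg/kg, by 0.85 on the log2 scale. With the clock score in the fit only 1 of the 64 genes, Hsd11b2, was called higher at 30 μg/kg, so Tsc22d3 lost its call there. Hsd11b2 was at 182, 204 and 211 CPM in the vehicle group and at 371, 402 and 440 CPM at 30 μg/kg, without overlap. The mineralocorticoid receptor gene Nr3c2 was not called at 30 μg/kg (0.044 ± 0.11, adjusted p = 0.837).

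Of the 3 scaffold genes in the lists whose products bind NHE3, Slc9a3r1 and Pdzk1 were called at 30 μg/kg and Slc9a3r2 was not (0.34 ± 0.19, adjusted p = 0.251). Slc9a3r1, the scaffold NHERF1 that holds NHE3 at the apical membrane, rose from 230, 239 and 275 CPM to 349, 363 and 470 CPM at 30 μg/kg (0.67 ± 0.14, adjusted p = 0.0049). Pdzk1 was called, but had 3 reads in all in the vehicle group and 51 at 30 μg/kg, a ratio of 13.5 with a 95% interval of 4.38 to 67.8 that covers counting error only. Its slope over dose rank was called higher, but its group means did not rise steadily. They were 0.101 CPM in the vehicle group, 1.05 at 0.1 μg/kg, 0.534 at 3, 1.05 at 10 and 1.39 at 30 μg/kg. Markers of other cell types moved at the same dose. Of 6 small-intestine markers 2 were called higher at 30 μg/kg (Alpi and Lct), as were 2.95% of all genes, and the 6 summed to 54.9 to 77.1 CPM in the vehicle group and 65.5 to 228 CPM at 30 μg/kg. All 4 tuft cell markers were called lower, as were 3.21% of all genes, with sums of 67.3 to 79.2 and 20.2 to 30.9 CPM. The 8 markers of smooth muscle and stroma summed to 125 to 150 CPM in the vehicle group and 124 to 675 CPM at 30 μg/kg, with 0 called, while 1 of 4 adipose markers (Cfd) and 1 of 7 goblet markers (Zg16) were called higher. Their part in the changes of Slc9a3, Slc9a3r1 and Pdzk1 was not tested. Slc9a3r1, Pdzk1, Hsd11b2 and Usp2 were also called higher at 10 μg/kg. At that dose 5 of the 64 pathway genes were called, against 1 with an index-set term and 1 with the clock score in the fit. Beside the 9 calls among the 64 pathway genes at 30 μg/kg, 5 of the 64 were called with an index-set term and 3 with the clock score in the fit, alternatives added for these genes after seeing the data. Hsd11b2 was called with each (0.95 and 1.52), whereas Slc9a3r1 was called with neither (0.85, adjusted p = 0.0569, and 0.54, adjusted p = 0.292). Usp2 was called with the index-set term (1.88) and not with the clock score (0.57, adjusted p = 0.554). Pdzk1 was not called with the clock score either. For these genes too, the index-set term rests on the mice at 1 μg/kg.

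Among 14 tested anion and acid-base transporters, the 2 called lower at 30 μg/kg were sodium-coupled solute carriers. Slc6a14, an amino acid transporter driven by sodium and chloride, fell from 699, 708 and 751 CPM to 286, 331 and 440 CPM (-1.03 ± 0.15, adjusted p = 1.42e-04), and was also lower at 30 than at 3 μg/kg (-0.82 ± 0.15, adjusted p = 0.00661). It was called at 30 μg/kg with the index-set term (-1.34) and with the clock score (-1.31) too. Slc5a8, which takes up short-chain fatty acids such as butyrate with sodium, fell from 318, 344 and 532 CPM to 139, 151 and 262 CPM (-1.11 ± 0.22, adjusted p = 0.0028). Both groups of 3 mice were separate from vehicle. With the index-set term only 1 of the 64 pathway genes, Slc6a14, was called lower at 30 μg/kg, so Slc5a8 lost its call there. Among 8 chloride channel genes, Best2, a bicarbonate-conducting bestrophin of goblet cells, was higher (1.54 ± 0.46, adjusted p = 0.0324). It was not called with the clock score in the fit. None of 7 carbonic anhydrases, 4 water channels, 6 potassium channels and 5 genes of guanylin signalling was called at 30 μg/kg.

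**Figure D5:**
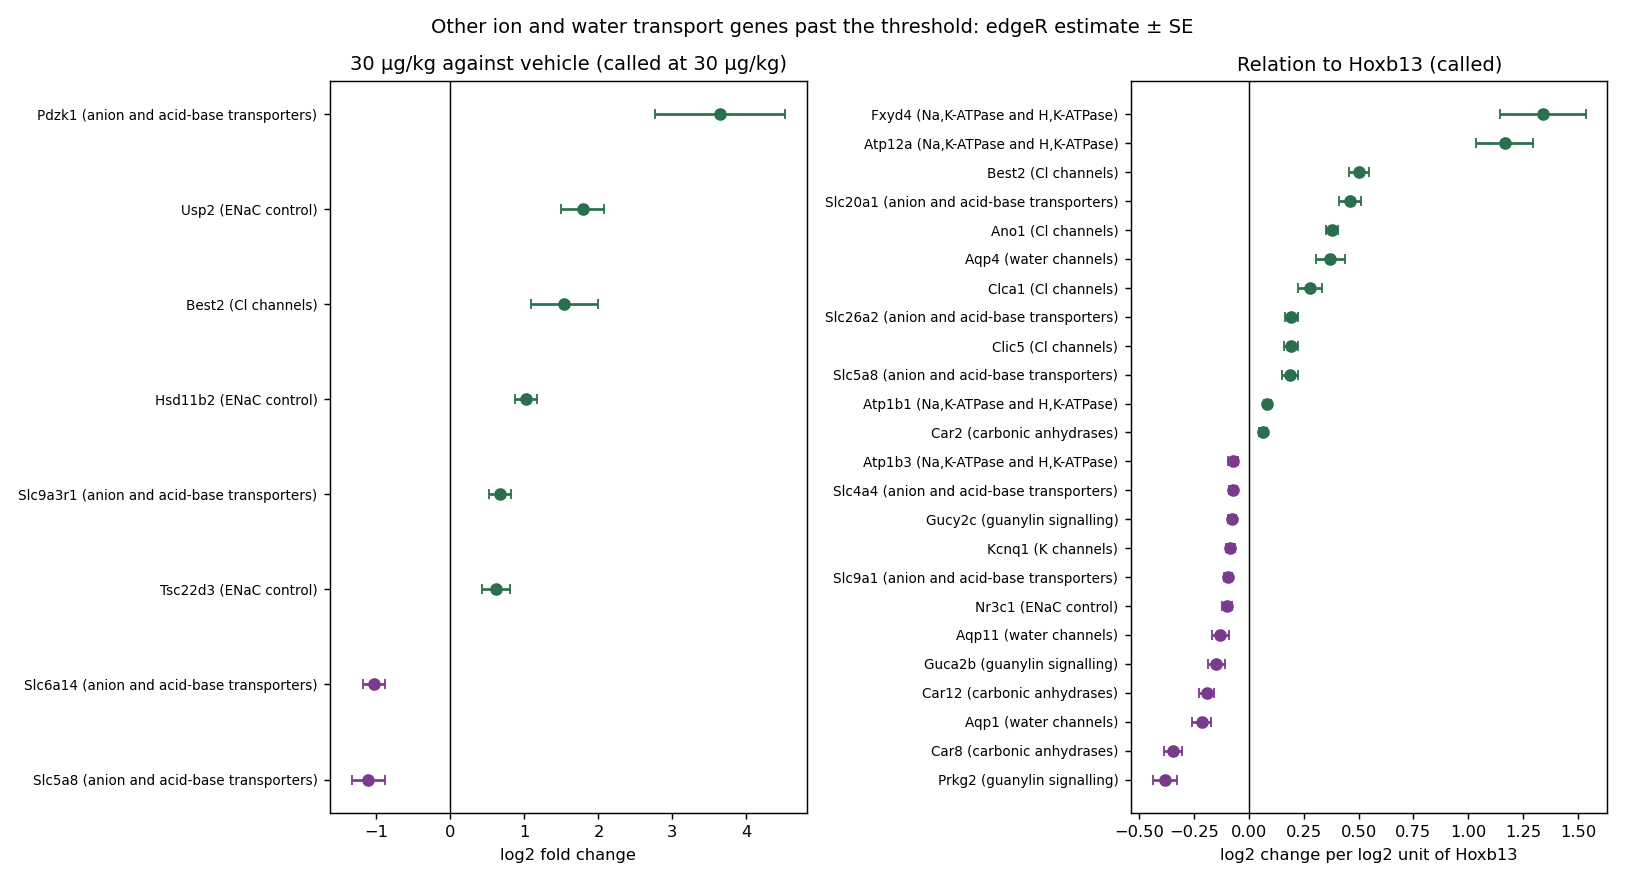
Genes of the pathway lists past the threshold, as edgeR log2 fold change ± SE at 30 μg/kg against vehicle (left, 8 genes) and as log2 change ± SE per log2 unit of Hoxb13 (right, 24 genes). Green marks higher and purple lower, and the list of each gene is in brackets. Fxyd4 and Atp12a had the largest coefficients for Hoxb13, 1.34 and 1.17.

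Along Hoxb13, 24 of the 64 pathway genes were called, 12 higher and 12 lower, where 5.02% and 4.1% of all genes were, with a median coefficient of -0.0024. The largest rises were those of Fxyd4 (1.34 ± 0.20), an aldosterone-responsive regulator of the sodium pump, and Atp12a (1.17 ± 0.13, adjusted p = 1.26e-06), the colonic H,K-ATPase that recovers potassium. Atp12a was at 188 and 204 CPM in mice 57 and 59 at 10 μg/kg and at 2.65 CPM in mouse 58, which had the least Hoxb13 of the 3. Of 8 chloride channel genes, 4 rose and 0 fell, led by Best2 (0.50 ± 0.047) and the calcium-activated channel gene Ano1 (0.38 ± 0.027). Of the 4 tested water channels, Aqp4 rose (0.37 ± 0.066) as Aqp8 did, while Aqp1 (-0.22 ± 0.042) and Aqp11 (-0.13 ± 0.039) fell. Slc20a1, a sodium-phosphate cotransporter, rose by 0.46 ± 0.050.

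The 12 that fell with Hoxb13 included 3 of 5 genes of guanylin signalling, a pathway that drives chloride secretion through CFTR: the kinase gene Prkg2 (-0.38 ± 0.055), the peptide gene Guca2b (-0.15 ± 0.039) and the receptor gene Gucy2c (-0.076 ± 0.018). Car8 (-0.35 ± 0.042) and Car12 (-0.19 ± 0.032) fell as Car1 did, and Car2 rose slightly (0.065 ± 0.019). Kcnq1, a basolateral potassium channel that supports secretion, fell by 0.084 ± 0.021, and Slc4a4, a sodium-bicarbonate cotransporter, by 0.071 ± 0.018. Of the 14 genes that control ENaC only Nr3c1, the glucocorticoid receptor, was called (-0.10 ± 0.023), so that 13 did not pass the test along Hoxb13, while the subunit genes Scnn1a and Scnn1g did.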

How the data were processed

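Gene counts of 27 mice were analysed. The authors deposited raw, unnormalised counts of reads per gene, 1 file per mouse, on GRCm38 per the labels. The submitters' processing notes name FastQC 0.11.3, Trimmomatic 0.33, TopHat2 2.1.0, SAMtools 1.2.0 and HTSeq 0.6.1. The annotation release and the use of strand were not given in the sources used here. Rows that named no gene were left out (29.1 to 33.3% no feature and 30.7 to 37.1% not unique, of the total of all rows). A name table of Ensembl identifiers matched 45143 of 46078 identifiers.

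Counts were scaled with TMM factors, filtered with filterByExpr (minimum count 10) and fitted with edgeR 4.0.16 in R 4.3.3 (quasi-likelihood test, Benjamini-Hochberg adjustment over 16496 genes). All adjusted p-values come from these fits unless another tool is named, and the standard error is the log2 change divided by the root of F. Each dose was compared with vehicle in 1 fit of all groups, and called where the adjusted p lay under 0.05 and the fold reached 1.5. The slope over dose ranks and the term for Hoxb13 (log2 CPM, prior count 2, beside terms for the dose groups) were called at an adjusted p under 0.05 alone. DESeq2 1.42.0, limma 3.58.1 (voom) and other scalings, filters and covariates were alternatives. Exact permutation tests were run in R and random permutations with numpy 2.4.6. Ranks and the counting interval of Pdzk1 came from scipy 1.17.1. The scripts were tested on simulated data. No 2 mice of a group had counts that agreed within sampling noise (lowest chi-square per degree of freedom in 27 pairs, 5.84).

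The rule for named genes took the 10 members, pathway genes past a threshold and the genes most alike each member. Gm15592, Slc9a3r2, the marker genes of other cell types and Nr3c2 at 30 μg/kg fall outside it and were picked with their values in view. Of the pathway genes, 1 is in the counts but is not reported here. The members, pathway and marker lists were chosen with earlier results of these data known.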

Additional observations from a re-analysis of the deposited data

How the results depend on the processing

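No paired analysis was possible because no replicate number was shared between groups. The count of members called for Hoxb13 was 6 or 7 in the 11 alternatives and without each mouse, with Slc12a2 the call that was lost. At 10 μg/kg Slc9a3 was lost (0 called) with an index-set term, with the clock score and at a posterior probability of at least 0.8. At 30 μg/kg it was 0 once the clock score was added, and 2 with the distal Hox score or in a fit of the 2 groups alone, where Scnn1g was added. At 3 μg/kg it was 1 with the distal Hox score. For the slope it was 0 with an index-set term, with the clock score and over vehicle to 3 μg/kg alone, 5 with Hoxb13 and 6 with the distal Hox score in the fit. Leaving out single mice gave 3 to 7 for the slope (7 without vehicle mouse 2) and 0 to 1 at 3 μg/kg (1 without mouse 49). Uncalled values changed sign. With the clock score these were at 30 μg/kg Slc26a3 (-0.57), Scnn1a (-0.075), Scnn1g (-0.88), Car1 (0.023) and Car4 (-0.054), and the slope of Scnn1b (0.059, and 0.024 with an index-set term). The slope of Car1 became 0.014 with Hoxb13, 0.0057 with the distal Hox score and 0.027 up to 3 μg/kg, where that of Aqp8 became -0.032. Scnn1b against the distal Hox score in place of Hoxb13 was 0.013. Without single mice, log2 changes at 30 μg/kg ran from -0.032 to 0.69 for Slc26a3, -0.058 to 0.33 for Scnn1b, -0.18 to 0.51 for Aqp8 and -0.094 to 0.36 for Car4, and the slope of Car1 from -0.023 to 0.0041. Over all genes, the alternatives called 4 to 72 at 1 μg/kg (33 as reported), 2 to 231 at 3 (115), 26 to 532 at 10 (294), 218 to 1818 at 30 (1016), 44 to 148 between 30 and 3 μg/kg (76), 955 to 1636 for Hoxb13 (1505) and 11 to 4266 for the slope (3865). The causes were not tested. Scnn1g had the fewest reads of the members, 6 to 135 per mouse.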

Other observations

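Over the 9 dose ranks, 15 of the 64 pathway genes tested were called higher and 6 lower by edgeR, beside 11.8% and 11.6% of all genes. Of these, 13 were called neither at 10 nor at 30 μg/kg. Among anion and acid-base transporters, the phosphate carrier Slc20a1 rose by 0.15 log2 units per rank, the exchanger Slc26a6 by 0.091, the sulfate transporter Slc26a2 by 0.057 and the sodium/hydrogen exchanger Slc9a2 by 0.042, while the sodium-bicarbonate cotransporter Slc4a4 fell by 0.057. Among potassium channels, Kcnk5 rose by 0.060 and Kcnma1, the channel of colonic potassium secretion, by 0.030, while Kcnq1 fell by 0.050. The chloride channel gene Clcn2 rose by 0.082 and Clcn3 fell by 0.031. Nr3c2, the mineralocorticoid receptor gene, rose by 0.038, Atp1b1, a beta subunit of the sodium pump, rose by 0.054, and the kinase gene Prkg2 of guanylin signalling fell by 0.11. Of the 21 slope calls, 0 were made with an index-set term and 1 with the clock score in the fit, that of Hsd11b2 (0.17 per rank).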
